A study of Mus musculus with 3186 samples.

Results

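The 181 mural cells of the adult mouse brain with the most Acta2 RNA, called Acta2-rich cells here, were set beside 87 mural cells with an intermediate Acta2 level. Acta2 encodes the actin of smooth muscle. The cells were chosen by 2 measured values: less than 1000 CPM (reads of a gene as a share of the cell's total, scaled to the same sum in every cell) of the endothelial gene Cldn5, and at least 10000 CPM of Acta2 for the Acta2-rich cells or 500 to below 10000 CPM for the intermediate-Acta2 cells. Together they are 268 of 1484 cells of the mural reporter line and of 3186 cells in the series. The other 1138 cells of that line under the Cldn5 limit had less than 500 CPM of Acta2 and are called low-Acta2 mural cells, and 78 cells were left out for Cldn5. None of those 78 had enough Acta2 to enter either side.

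All 3 classes came from C57BL/6 mice aged 12 to 15 weeks that carried both Pdgfrb(BAC)eGFP and NG2dsRed. Cells positive for both reporters, so none that lacked either, were sorted from brain into 384-well plates and their RNA was sequenced by SMART-seq2, a full-length protocol without molecular tags. The labels name 4 mural plates, Mural3 to Mural6, and no animals, so each class counts as 1 sample of pooled cells and no difference below has a test. A plate is a plate of wells and not an animal, and a range over the plates shows how evenly a value held on them. Cells of the Cldn5(BAC)eGFP line, which labels brain endothelium, are named only where endothelial RNA matters.

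Mural cells wrap the outside of blood vessels. Smooth muscle cells encircle arteries, arterioles and veins and set vessel width by contraction, whereas pericytes lie along capillaries, embedded in the basement membrane they share with the endothelium. Contraction in smooth muscle is driven by calcium and calmodulin through myosin light chain kinase, and potassium channels, relaxing receptors and calcium stores hold it in check.

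The division on Acta2 gave Acta2-rich cells a median of 29887 CPM (10357 to 57093) and intermediate-Acta2 cells a median of 3013 CPM (507 to 9927). Just inside the upper limit lay cells at 10357 and 10387 CPM and just below it cells at 9679 and 9927 CPM, with 19 cells within 20% of the limit. At the lower limit the nearest cells had 507 and 525 CPM inside and 432 and 453 CPM outside. Low-Acta2 mural cells had a median of 3.77 CPM. The Acta2-rich cells numbered 43, 45, 46 and 47 on plates Mural3, Mural4, Mural5 and Mural6, and the intermediate-Acta2 cells 23, 23, 20 and 21. They were 12.2% (exact binomial 95% interval 10.6 to 14.0) and 5.86% (4.72 to 7.18) of the line, intervals that cover counting error only. Median depth was 377814 reads in Acta2-rich cells and 320156 in intermediate-Acta2 cells, with medians of 2950 and 2405 genes read per cell and of 2614 and 2158 genes after each cell was thinned to 99000 reads.

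The working label for the intermediate-Acta2 cells was venous-type smooth muscle, which the markers used here could not settle. The 9 pericyte markers summed to 5056 CPM in Acta2-rich cells (2839 to 6631 over the plates), 32986 CPM in intermediate-Acta2 cells (31361 to 34194) and 66623 CPM in low-Acta2 mural cells (61155 to 70749). The 8 smooth muscle markers, which do not include Acta2, summed to 33779, 8797 and 4667 CPM in the same order of classes. Cell by cell, 22 of 181 Acta2-rich cells, 82 of 87 intermediate-Acta2 cells and 1131 of 1138 low-Acta2 cells carried at least 10000 CPM of pericyte markers. The intermediate-Acta2 cells kept a high sum of pericyte markers beside their Acta2. Of the 87, 36 lay at or above 36534 CPM, the 5th percentile of the low-Acta2 cells. That level was reached by 0 of 181 Acta2-rich cells. Vtn made up the largest part of the sum in intermediate-Acta2 cells. Abcc9 and Kcnj8, given below, lay further below the low-Acta2 cells than the sum did. The lists used here hold no marker that tells venous from arterial mural cells, and the labels do not say from which vessels the cells came, so both sides are called by their Acta2 level.

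**Figure D1:**
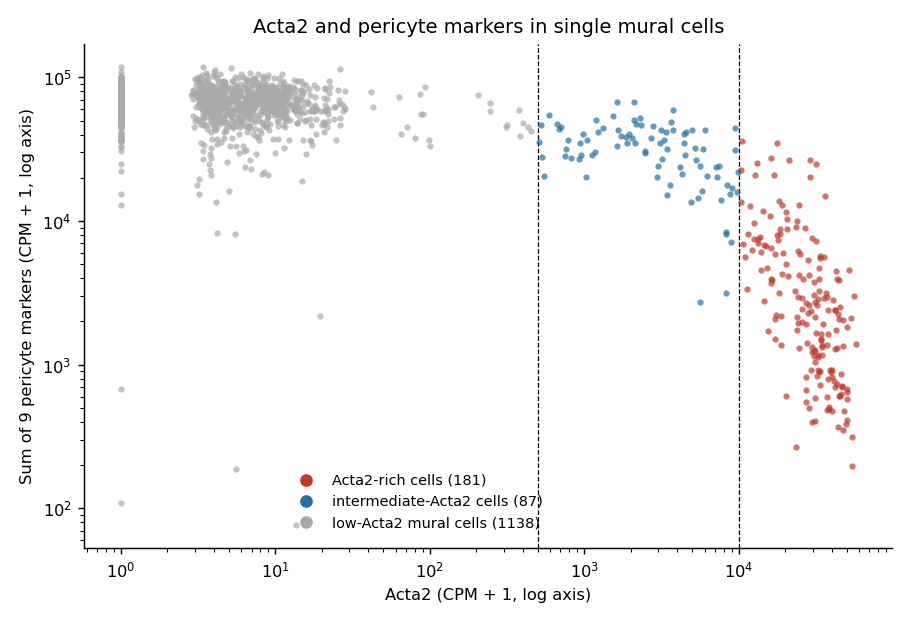
Each point is 1 mural cell: Acta2 on the horizontal axis and the sum of 9 pericyte markers on the vertical axis, both in CPM plus 1 on log axes, with dashed lines at the limits of 500 and 10000 CPM. The pericyte sum is about level up to the lower limit and declines across the intermediate-Acta2 and Acta2-rich cells, with no gap at either limit.

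Within the intermediate-Acta2 cells, more Acta2 went with fewer pericyte markers and with more smooth muscle markers (Spearman rho -0.48 and 0.51 across 87 cells). Among the 181 Acta2-rich cells the same ranks gave -0.63 and 0.80. These ranks describe cells that share plates and were cut at the same limits, and all values of a cell share its total. Pooled over cells, markers of other cells were low on both sides. Endothelial markers summed to 15.2 CPM in Acta2-rich cells, 253 CPM in intermediate-Acta2 cells and 883 CPM in low-Acta2 cells, against 21060 CPM in the Cldn5(BAC)eGFP line. Fibroblast markers summed to 746, 1265 and 1063 CPM in the 3 mural classes, microglia and macrophage markers to 105, 133 and 106 CPM, astrocyte markers to 14.4, 45.8 and 117 CPM, oligodendrocyte markers to 42.5, 55.0 and 29.2 CPM and neuron markers to 5.91, 33.5 and 20.7 CPM. Erythroid markers summed to 19.7 CPM in Acta2-rich cells and under 1 CPM in the other classes. Single cells reached more. The microglia and macrophage sum was at most 19962 CPM in an Acta2-rich and 13652 CPM in an intermediate-Acta2 cell. The highest fibroblast sums were 6724 and 7054 CPM in the same order. Sums for arterial (15.3, 14.7 and 16.5 CPM), capillary (180, 285 and 380.1 CPM) and venous (261, 279 and 277 CPM) endothelium were far below those of the endothelial line (1074, 7110.1 and 1209 CPM). Wells with more than 1 cell were not called as such, and 1 intermediate-Acta2 well and 0 Acta2-rich wells had endothelial markers at 10% or more of the median of the endothelial line.

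A gene was called where the pooled CPM differed at least 2-fold between the sides over all plates and on each of the 4 plates, among 9085 genes with a mean of at least 10 CPM over the sides and with 1 CPM added to each value. Of these genes 350 (3.85%) were higher and 258 (2.84%) lower in Acta2-rich cells, and the median log2 ratio over all 9085 was -0.11 (-0.04 to 0.05 on single plates). Without the demand on each plate 1122 and 1424 genes passed. A plate pool held only 20 to 23 intermediate-Acta2 cells, against 43 to 47 Acta2-rich cells, so low levels rest on few cells: at a mean of at least 50 CPM, 180 of the higher and 162 of the lower calls were left. In bulk or pooled RNA fewer cells with a transcript and less of it per cell cannot be told apart, and the number of cells with a read is therefore given for key genes.

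Genes of the contractile apparatus were higher in Acta2-rich cells. Of 26 counted genes of the contractile filament and cytoskeleton, 20 were called higher, against 3.85% of all genes counted, and 0 lower, and the list's median log2 ratio was 1.94 (1.81 to 2.35 over the plates). Acta2, on which the cells were divided, is not in this count. Without it the list took 6.22% of all reads in Acta2-rich cells, 1.89% in intermediate-Acta2 cells and 1.08% in low-Acta2 cells. Since the cells were divided on Acta2, genes that vary with it in single cells had to differ to some degree, and the count is a description.

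Cnn1, which encodes calponin, an actin-binding protein of differentiated smooth muscle (chr9:22099216-22109630, plus strand, mm10), had 444, 493, 417 and 455 CPM on plates Mural3 to Mural6 in Acta2-rich cells, against 0.306, 0, 0 and 0.32 CPM in intermediate-Acta2 cells. The 4 Acta2-rich values lay close together and no intermediate-Acta2 plate reached 1 CPM. Reads of Cnn1 were found in 93 of 181 Acta2-rich cells and 3 of 87 intermediate-Acta2 cells, and after thinning in 49.7% and 0% of them. Single Acta2-rich cells ran from 0 to 3259 CPM, so calponin RNA was not read in all of them at this depth.

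Other contractile genes were graded. Myh11, the smooth muscle myosin heavy chain, had 5828, 5795, 5389.6 and 6213 CPM in Acta2-rich cells, against 481, 930.0, 953 and 1221 CPM in intermediate-Acta2 cells and 87.4 CPM in low-Acta2 cells pooled. Tagln, the actin-binding transgelin, had 4377, 4993, 4797 and 5287 CPM in Acta2-rich cells, against 377, 469, 461 and 574 CPM in intermediate-Acta2 cells and 4.73 CPM in low-Acta2 cells. For both genes the ranges of the 3 classes stood apart on every plate. Tropomyosin Tpm2 and leiomodin Lmod1, which nucleates actin filaments, were 4.83-fold and 5.57-fold higher in Acta2-rich than in intermediate-Acta2 cells. Myl9, the regulatory light chain that the kinase acts on, had 14729.9, 5375 and 3839.7 CPM in Acta2-rich, intermediate-Acta2 and low-Acta2 cells and so was abundant in every class. Desmin, an intermediate filament of muscle and pericytes, had 1063, 331 and 196 CPM. Actg2, the other smooth muscle actin, had 89.6, 47.8, 58.5 and 61.0 CPM in Acta2-rich cells and 0 in intermediate-Acta2 cells on every plate. Its sequence is close to that of Acta2, and the way reads shared by such copies were counted is not given in the sources used here, so its level is uncertain. Filament genes without a call included Vcl (837 CPM in Acta2-rich and 1240.1 CPM in intermediate-Acta2 cells), Cald1 (1884 and 2258 CPM) and non-muscle myosin Myh9 (186 and 388 CPM).

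The CArG box is the sequence to which serum response factor binds, the factor behind many smooth muscle and immediate early genes. The RefSeq promoter table (GRCm38.p6) was searched for it in the 250 bases before each gene's start. The pattern reads the same on both strands, and no other motif was searched. A box stood before 439 of 27025 genes (1.62%). It stood before 109 of the 7334 counted genes that could be matched (1.49%), 10 of 275 matched genes called higher, 4 of 195 called lower and 3 of 22 of the contractile list. The last 3 shares were 3.64%, 2.05% and 13.6%, and they rest on only 10, 4 and 3 genes with a box. Matched genes were 78.6% of the 350 called higher and 75.6% of the 258 called lower, and the sets were not compared. These 4 windows, from genes called higher in Acta2-rich cells, are shown to let the box be seen in place, each 50 bases 5′ to 3′ on the gene's strand with the box in capitals.
Myl9: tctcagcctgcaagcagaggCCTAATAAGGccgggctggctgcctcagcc
Myl6: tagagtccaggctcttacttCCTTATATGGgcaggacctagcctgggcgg
Zfp36: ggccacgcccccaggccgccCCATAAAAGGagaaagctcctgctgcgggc
Egr2: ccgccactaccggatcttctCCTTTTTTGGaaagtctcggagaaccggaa
The window of Myl9 lies at chr2:156775283-156775332 on the plus strand, with the first base of its box at -161 from the gene's start. That of Myl6 lies at chr10:128493030-128493079 on the minus strand (box from -50) and that of Zfp36 at chr7:28379257-28379306 on the minus strand (box from -58). The printed window of Egr2 lies at chr10:67537474-67537523 on the plus strand (box from -72). Another window of Egr2 with a box, counted from another start, lies at chr10:67537777-67537826 and is not printed. All lie upstream of the start they were counted from. Myl6, the essential light chain, had 744 CPM in Acta2-rich and 186 CPM in intermediate-Acta2 cells. The values of Myl9 stand above. Zfp36 and Egr2 are immediate early genes, and their log2 ratios were 3.54 and 3.82. Among cells with less than 1000 CPM of Fos on both sides the ratio of Zfp36 was -0.27, in the opposite direction, and Egr2 was not called. Egr2 had only 21.3 CPM in Acta2-rich cells. It also lost the call with the sides divided at 5000 or 20000 CPM of Acta2 and without plate Mural3. The windows of Acta2 and Cnn1 held no such run of letters, which says nothing about the factor there.

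**Figure D2:**
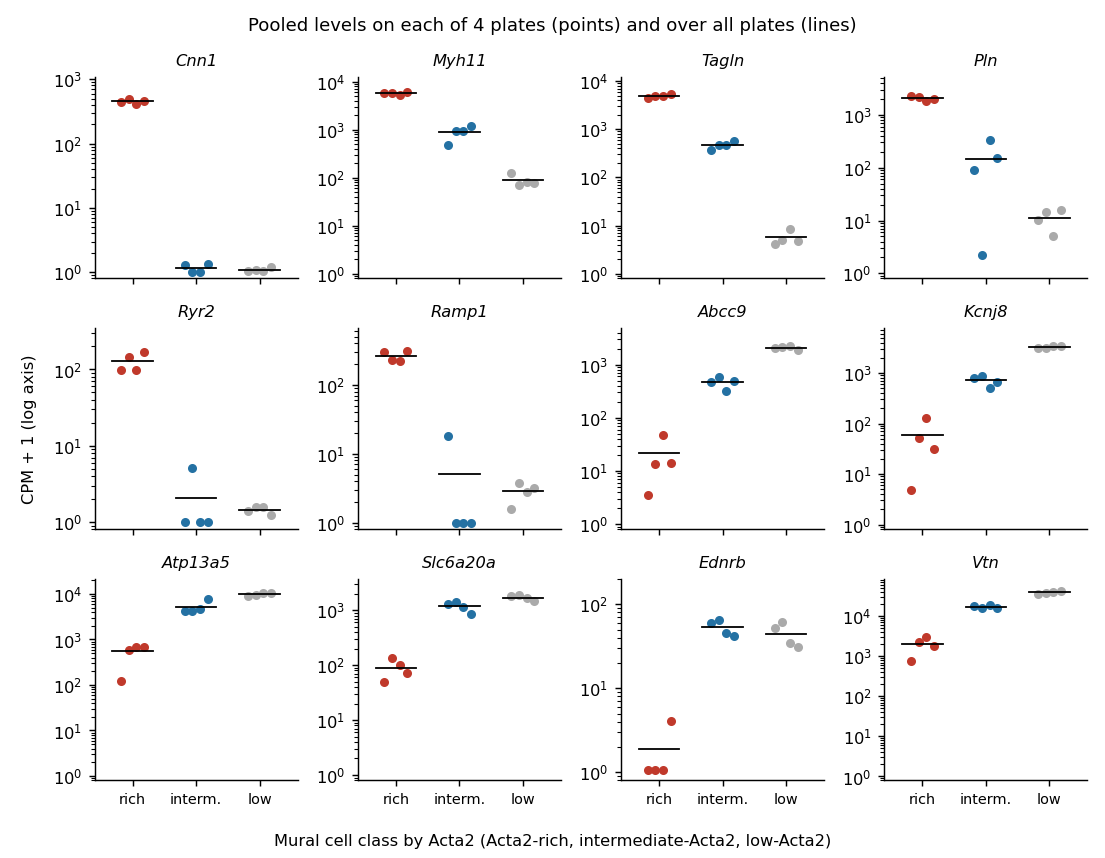
Pooled levels of 12 genes in CPM plus 1 on log axes, with 1 point per plate and a line for all plates, in Acta2-rich cells (red), intermediate-Acta2 cells (blue) and low-Acta2 mural cells (grey). Cnn1 drops to the floor in intermediate-Acta2 cells, Myh11 and Tagln are graded over the 3 classes, Abcc9 and Kcnj8 run the other way, and Ednrb is about level in intermediate-Acta2 and low-Acta2 cells.

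Of 22 counted genes of calcium handling and control of contraction, 8 were higher and 1 lower in Acta2-rich cells, against 3.85% and 2.84% of all genes counted, and their median log2 ratio was 1.04 (1.01 to 1.43). Mylk, myosin light chain kinase, had 2299, 2259, 2199 and 2224 CPM in Acta2-rich cells, against 715, 722, 1007 and 666 CPM in intermediate-Acta2 cells. Its lowest Acta2-rich plate was more than 2-fold above its highest intermediate-Acta2 plate. Ryr2, the calcium release channel of the sarcoplasmic reticulum, had 98.4, 144, 97.1 and 168 CPM in Acta2-rich cells, against 0, 4.1, 0 and 0 CPM in intermediate-Acta2 cells, where 3 plates had none. Pln, phospholamban, which restrains the calcium pump, had 2288, 2148, 1816 and 2007 CPM in Acta2-rich cells, against 90.4, 1.23, 331 and 152 CPM in intermediate-Acta2 cells. Its intermediate-Acta2 plates spread widely, and all lay below the Acta2-rich ones. Casq2, calsequestrin, which stores calcium in the reticulum, was the single gene of the list called lower, with 408, 263, 360.3 and 409 CPM in Acta2-rich cells, against 1456, 2536, 1451 and 2115 CPM in intermediate-Acta2 cells. Low-Acta2 cells had 634 CPM of Casq2, less than the intermediate-Acta2 cells.

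Of 21 counted ion channel genes 2 were higher and 3 lower, against 3.85% and 2.84% of all genes counted. The other 16 were not called, and the list's median log2 ratio was -0.19. Kcnma1, the pore of the large-conductance calcium-activated channel, and Kcnab1, a subunit of voltage-gated channels, were called higher in Acta2-rich cells, with 51.4 and 498 CPM, against 0.109 and 15.1 CPM in intermediate-Acta2 cells. Kcnj8 and Abcc9, which encode the pore and the sulfonylurea receptor of the vascular ATP-sensitive channel, were called lower. Abcc9 (chr6:142587862-142702315, minus strand) had 2.61, 12.6, 47.3 and 12.9 CPM in Acta2-rich cells, against 460.0, 591, 325 and 499 CPM in intermediate-Acta2 cells. Kcnj8 (chr6:142564837-142571614, minus strand), its neighbour on the chromosome, had 3.73, 50.9, 129 and 29.7 CPM in Acta2-rich cells, against 795, 881, 516 and 669 CPM in intermediate-Acta2 cells. The plates of the sides did not overlap for either gene, and plate Mural3 was lowest in Acta2-rich cells for both. Low-Acta2 cells had more of each, 2048 CPM of Abcc9 and 3318 CPM of Kcnj8. The cation channel Trpc4 was lower too, with 25.6 CPM in Acta2-rich and 103 CPM in intermediate-Acta2 cells.

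Among receptors for vasoactive signals 6 of 17 counted genes were lower in Acta2-rich cells, against 2.84% of all genes counted, and 1 was higher, against 3.85% (median log2 ratio -1.99, -1.97 to -0.81 over the plates, each plate having its own median). Ednrb, an endothelin receptor, had 0.0705, 0.0641, 0.0518 and 3.12 CPM in Acta2-rich cells, against 58.6, 64.6, 44.2 and 40.5 CPM in intermediate-Acta2 cells. That level came from few cells, with a read in 5 of 181 and 5 of 87. P2ry14, a receptor for nucleotide sugars, had 359.8, 504, 475 and 343 CPM in Acta2-rich cells, against 1861, 1909, 1864 and 1435 CPM in intermediate-Acta2 cells, and was read in 82 of 87 intermediate-Acta2 cells. Adora2a, an adenosine receptor, had 26.4 CPM in Acta2-rich and 166 CPM in intermediate-Acta2 cells. The receptor gene called higher was Ramp1, the partner that turns the receptor Calcrl into a receptor for calcitonin gene-related peptide, a dilator released by nerves. Ramp1 had 294, 229, 218 and 311 CPM in Acta2-rich cells, against 17.1, 0, 0 and 0 CPM in intermediate-Acta2 cells, where only plate Mural3 had any. Calcrl itself was not called (45.2 and 17.1 CPM). Npy1r, a receptor for neuropeptide Y, had 802, 381 and 81.5 CPM in Acta2-rich, intermediate-Acta2 and low-Acta2 cells and missed the call on at least 1 plate. Of 23 counted genes of cyclic nucleotide and G protein signalling 1 was higher and 1 lower, against 3.85% and 2.84% of all genes counted. The lower was Rgs5, a brake on G protein signalling known as a mural cell marker, with 1593 CPM in Acta2-rich and 5348 CPM in intermediate-Acta2 cells, a log2 ratio of -1.75. Among cells with less than 1000 CPM of Fos on both sides that ratio was -0.64, less than 2-fold.

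**Figure D3:**
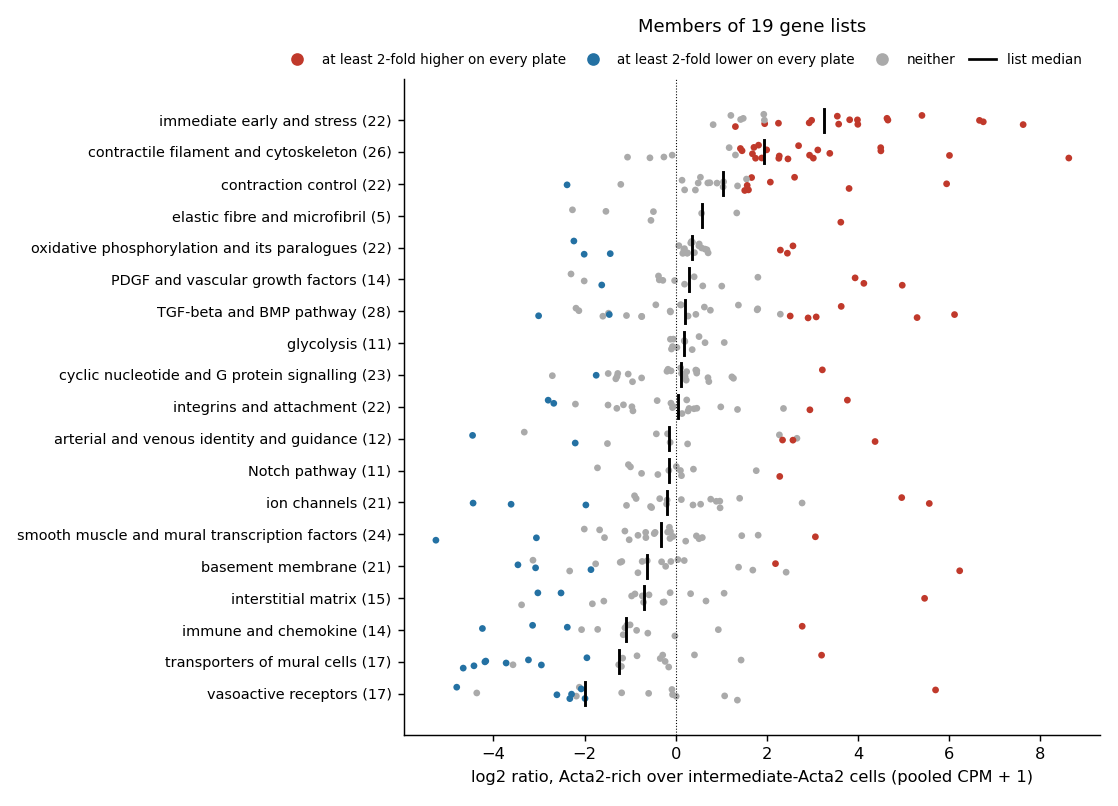
Log2 ratio of pooled CPM plus 1, Acta2-rich over intermediate-Acta2 cells, for each counted member of 19 gene lists, with the number counted in brackets, a black line at the list median and colours for the call. The immediate early list (median 3.26) and the contractile list (1.94) lie highest, and transporters (-1.25) and vasoactive receptors (-1.99) lowest.

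Most Notch genes were not called. Of 11 counted, 1 was higher, against 3.85% of all genes counted, and 10 were not called. Notch3, the main Notch receptor of mural cells, had 618, 817, 1166 and 894 CPM in Acta2-rich cells, against 1254, 1949, 2108 and 2019.7 CPM in intermediate-Acta2 cells and 1004 CPM in low-Acta2 cells. Every intermediate-Acta2 plate lay above every Acta2-rich plate, by less than 2-fold on at least 1 plate. Its target Heyl was near level, with 778 and 714 CPM. Hes1, another Notch target that also answers to other stimuli, was the gene called higher, with 567 CPM in Acta2-rich and 116 CPM in intermediate-Acta2 cells, a log2 ratio of 2.28. Among cells with less than 1000 CPM of Fos on both sides that ratio was -0.16, so the direction of Hes1 turns with those cells.

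In the TGF-beta and BMP pathway 6 of 28 counted genes were higher and 2 lower in Acta2-rich cells, against 3.85% and 2.84% of all genes counted. The ligand Bmp2 was found in Acta2-rich cells at 67.3, 29.7, 26.2 and 40.9 CPM and in intermediate-Acta2 cells at 0.153, 0, 0 and 0 CPM, with a read in 28 of 181 and 1 of 87 cells. The related ligand Bmp4 ran the other way, with 23.9, 9.03, 10.7 and 0.215 CPM in Acta2-rich cells, against 177, 115, 54.0 and 9.77 CPM in intermediate-Acta2 cells, values that spread widely over the plates. Of 24 counted transcription factors 1 was higher and 2 lower, near the shares of all genes. Myocd, the cofactor through which serum response factor drives smooth muscle genes, was called higher (135 CPM in Acta2-rich and 15.3 CPM in intermediate-Acta2 cells, with a read in 122 of 181 and 11 of 87 cells). Myocd was not called with the sides divided at 20000 CPM of Acta2 (log2 ratio 1.47, against 3.06). It also lost the call with lower Acta2 limits of 1000 and 2000 CPM and on the authors' scaled table. Hic1, a repressor, and Fhl2, a cofactor, were called lower, with 9.56 and 1.67 CPM in Acta2-rich cells, against 87.0 and 102 CPM in intermediate-Acta2 cells. Nr2f2, which marks venous endothelium, was level at 259, 271 and 264 CPM in Acta2-rich, intermediate-Acta2 and low-Acta2 cells.

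Of 12 counted genes of arterial and venous identity and of guidance 3 were higher and 2 lower, against 3.85% and 2.84% of all genes counted. Of secreted guidance cues, Sema3f (20.5 and 0.0363 CPM in Acta2-rich and intermediate-Acta2 cells) and Ntn4 (56.9 and 8.75 CPM) were higher and Ntn1 (25.9 and 123 CPM) was lower in Acta2-rich cells. Of guidance receptors, Plxnd1 was higher (64.5 and 11.9 CPM) and Unc5b lower (1.54 and 54.8 CPM). With the sides divided at 20000 CPM of Acta2, the log2 ratio of Plxnd1 was 0.03, against 2.34 at 10000 CPM. Gja5 and Sema3g, arterial genes of endothelium, had no read in Acta2-rich cells, where 3 reads over the pool would be 0.0443 CPM.

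Of 21 counted basement membrane genes 2 were higher and 3 lower in Acta2-rich cells, against 3.85% and 2.84% of all genes counted. Lama5, the laminin alpha-5 chain, had 525, 708, 549 and 706 CPM in Acta2-rich cells, against 56.1, 123, 226 and 129 CPM in intermediate-Acta2 cells and 14.6 CPM in low-Acta2 cells. Lama2, the laminin alpha-2 chain, had 47.6, 48.1, 72.3 and 57.0 CPM in Acta2-rich cells, against 859.8, 672, 498 and 553 CPM in intermediate-Acta2 cells and 695 CPM in low-Acta2 cells. These laminin chains stood in opposite order on all 4 plates, although with the sides divided at 20000 CPM of Acta2 the log2 ratio of Lama5 was 0.96, just under 2-fold, against 2.19 at 10000 CPM. Npnt, nephronectin, an integrin ligand, had 123, 68.7, 68.1 and 47.5 CPM in Acta2-rich cells and none in intermediate-Acta2 cells. With a floor of 3 reads over the pool of 87 cells, Npnt was at least 679.5-fold higher. That floor counts reads and not cells, so the spread among cells is not covered. Vtn, vitronectin, a leading transcript of brain pericytes, had 777, 2279.5, 3065 and 1794 CPM in Acta2-rich cells, against 17758, 16068, 19272 and 16083 CPM in intermediate-Acta2 cells. Eln, elastin, was the 1 of 5 counted elastic fibre genes called higher (105 and 7.63 CPM), against 3.85% of all genes counted. Of 15 counted interstitial matrix genes 1 was higher and 2 lower, against 3.85% and 2.84% of all genes counted. Thbs1, thrombospondin, was higher (252 and 4.76 CPM), and the collagens Col6a2 (17.2 and 103 CPM) and Col8a1 (8.82 and 79.0 CPM) were lower. Thbs1 was not called with the sides divided at 20000 CPM of Acta2 (log2 ratio 1.82, against 5.46). Col8a1 lost the call under many settings, among them both other divisions, median-ratio scaling and the authors' scaled table. Of 22 counted adhesion genes 2 were higher and 2 lower, against 3.85% and 2.84% of all genes counted. The laminin-binding integrin Itga3 (197 and 13.6 CPM) and Cdh6 (141 and 17.5 CPM) were higher. Cdh2 (18.7 and 136 CPM) and Cdh11 (34.0 and 223 CPM) were lower.

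Genes of pericytes were lower in Acta2-rich cells, with all 9 pericyte markers called lower, against 2.84% of all genes counted. The markers were chosen with earlier results of these data known, and the cells were divided on Acta2. This count is therefore a description. Pdgfrb, P2ry14 and Higd1b lost the call among cells with less than 1000 CPM of Fos on both sides (log2 ratios -1.09, -1.43 and -1.63). Pdgfrb, the growth factor receptor whose promoter drives a reporter of this line, was read in every cell of both sides and had 1143, 1528, 1614 and 1376 CPM in Acta2-rich cells, against 4224, 4516, 4181 and 4761 CPM in intermediate-Acta2 cells, 3.08-fold more in the intermediate-Acta2 pool. Cspg4, the gene of the NG2 reporter, was not called, at 1507 and 1936 CPM. Both reporters were used in the sort. Of 17 counted transporters 8 were lower, against 2.84% of all genes counted, and 1 higher, against 3.85%. Atp13a5, a transport ATPase known as a pericyte marker of the central nervous system, had 122, 596, 693 and 669 CPM in Acta2-rich cells, against 4281, 4243, 4602 and 7659 CPM in intermediate-Acta2 cells. Slc6a20a, a proline transporter, had 48.8, 132, 100.5 and 72.0 CPM in Acta2-rich cells, against 1307, 1409, 1163 and 838 CPM in intermediate-Acta2 cells, and reads of its close copy Slc6a20b could have been counted with it. Slc22a8, an organic anion transporter, had 7.73, 187 and 1456 CPM in Acta2-rich, intermediate-Acta2 and low-Acta2 cells. The transporter called higher was Slc38a2, which takes up neutral amino acids (412 and 44.0 CPM). Of 14 counted immune genes 3 were lower and 1 higher, against 2.84% and 3.85% of all genes counted. The cell surface aminopeptidases Anpep and Enpep and the interferon-induced Ifitm1 were called lower. Ifitm1 had 11.1, 8.39, 13.8 and 29.0 CPM in Acta2-rich cells, against 305, 298, 381 and 305 CPM in intermediate-Acta2 cells. The tetraspanin Cd9 was the 1 called higher (474 and 68.4 CPM).

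The genes with the greatest lower ratios beyond these lists were expressed by a minority of cells. Grm3, a metabotropic glutamate receptor, had 0.634, 5.96, 5.13 and 2.21 CPM in Acta2-rich cells, against 132, 142, 198 and 278 CPM in intermediate-Acta2 cells, with a read in 30 of 181 and 32 of 87 cells. Tnxb, a tenascin, had 0.236 CPM in Acta2-rich and 74.4 CPM in intermediate-Acta2 cells (log2 ratio -5.93), and the kinase Tec 0.724 and 89.7 CPM (-5.72). Tlr12, St8sia4, Glrb, Stc1, Gng2, Abca9, Galnt16, Baiap3 and 5430416O09Rik completed the 15 lowest, with Ednrb, Unc5b and Fhl2 above, at log2 ratios down to -6.00. With the sides divided at 5000 CPM of Acta2, Tnxb, Tec, St8sia4, 5430416O09Rik, Glrb, Fhl2, Ednrb, Galnt16 and Unc5b lost the call. Tec then had a log2 ratio of -1.43, and Fhl2 had -1.77, against -5.26 at 10000 CPM. Endothelial markers were also lower in Acta2-rich cells, as given above. Of the 258 lower genes 24 were at least 2-fold more abundant in the Cldn5(BAC)eGFP line than in low-Acta2 mural cells. Of the 350 higher genes 14 were at least 2-fold more abundant in that line than in Acta2-rich cells. The share of all counted genes that pass either limit is not given. Neither count is therefore read as many or few, and their mural classes differ. With the endothelial-rich well left out, 347 of the 350 and 256 of the 258 genes kept their call.

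On the higher side, some of the 15 greatest ratios belonged to genes best known from other muscle. Tcap, the titin cap of striated muscle, had 119.8, 181, 62.0 and 64.4 CPM in Acta2-rich cells and no read in intermediate-Acta2 cells. It was read in 54 of 181 Acta2-rich cells. The floor of 3 reads makes Tcap at least 939-fold higher in pooled reads, which leaves out the spread among cells. Its log2 ratio was 2.81 with the sides divided at 20000 CPM of Acta2, against 6.69 at 10000 CPM. Xirp1, an actin-binding protein of striated muscle, had 101 CPM in Acta2-rich and 0.0363 CPM in intermediate-Acta2 cells. Dtna, dystrobrevin, had 94.8 CPM in Acta2-rich cells and no read in intermediate-Acta2 cells. With the sides divided at 20000 CPM of Acta2, the log2 ratio of Dtna was 1.70, against 6.58 at 10000 CPM, and Dtna was not called. Ptgis, prostacyclin synthase, which makes a dilator and platelet inhibitor, had 304, 171, 356 and 348 CPM in Acta2-rich cells, against 1.83, 0, 5.38 and 0 CPM in intermediate-Acta2 cells, and was read in 84 of 181 and 2 of 87 cells. Cpxm2, a carboxypeptidase-like protein, had 121, 90.4, 139.5 and 159 CPM in Acta2-rich cells, against 1 read in all intermediate-Acta2 cells. Sh3bgr, 2900026A02Rik, Smim5, Efhd1 and Fgl2 were also among the 15, each with a read in at most 1 intermediate-Acta2 cell. Of 14 counted genes of the growth factor list 3 were higher and 1 lower, against 3.85% and 2.84% of all genes counted. Pdgfd, Igfbp4 and Igfbp5 were higher and Pdgfrb lower. Igfbp4 had 282 CPM in Acta2-rich and 8.02 CPM in intermediate-Acta2 cells.

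Most genes of energy metabolism were not called, but related genes of the respiratory chain stood in opposite order. Of 22 counted genes of oxidative phosphorylation 3 were higher and 3 lower, against 3.85% and 2.84% of all genes counted, and of 11 glycolysis genes 0 were called, with medians of 0.35 and 0.19. Ndufa4, a subunit of cytochrome c oxidase, had 202, 215, 208 and 242 CPM in Acta2-rich cells, against 53.7, 32.8, 25.8 and 66.8 CPM in intermediate-Acta2 cells. Its paralogue Ndufa4l2 had 127, 159, 202 and 142 CPM in Acta2-rich cells, against 477, 568, 767 and 776 CPM in intermediate-Acta2 cells, the opposite order on every plate. The same held for the paralogues Higd1a (63.5 and 10.8 CPM in Acta2-rich and intermediate-Acta2 cells) and Higd1b (279 and 1318 CPM). With the sides divided at 20000 CPM of Acta2, however, the log2 ratio of Higd1a was 0.69, against 2.45 at 10000 CPM. Cox4i2, an oxygen-sensitive subunit, was lower at 133 and 362 CPM (log2 ratio -1.44, and -0.84 among cells with less than 1000 CPM of Fos), and brain creatine kinase Ckb higher at 1238 and 207 CPM.

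Immediate early genes, which many stimuli switch on within minutes, had the highest median of any list: 16 of 22 counted genes were higher, against 3.85% of all genes counted, and 0 lower, at a median log2 ratio of 3.26 (2.12 to 4.40 over the plates). Fosb had 1018, 452, 718 and 791 CPM in Acta2-rich cells, against 1.07, 3.96, 3.36 and 2.4 CPM in intermediate-Acta2 cells. Atf3, a stress-induced factor, had 3117, 1728, 2115 and 1911 CPM in Acta2-rich cells, against 4.28, 0.137, 71.7 and 0.481 CPM in intermediate-Acta2 cells. Cyr61, a secreted matrix protein, had 1140.0 and 9.62 CPM. With the sides divided at 20000 CPM of Acta2, the log2 ratio of Cyr61 was 1.15, against 6.75 at 10000 CPM, and Cyr61 was not called. Fos, named after its values were seen, had 9664, 228 and 122 CPM in Acta2-rich, intermediate-Acta2 and low-Acta2 cells. At least 1000 CPM of Fos was found in 120 of 181 Acta2-rich cells (66.3%), 5 of 87 intermediate-Acta2 cells (5.75%) and 22 of 1138 low-Acta2 cells (1.93%), and on single plates in 56.5% to 74.5% of Acta2-rich cells and 4.35% to 8.70% of intermediate-Acta2 cells.

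Within the Acta2-rich side, Fos-rich cells also held more Acta2. The median Acta2 was 32265 CPM in the 120 cells with at least 1000 CPM of Fos and 23948 CPM in the other 61, whose median pericyte sum was higher (5917 CPM, against 1736 CPM in the 120). With such cells left out on both sides, a setting chosen after the data were seen, 207 genes were higher and 220 lower, of which 131 and 130 were among the 350 and 258 genes above. The contractile median was then 1.70 and the immediate early median 0.25. Fos is itself on the immediate early list, so that fall was partly fixed by the choice of cells. The pools were also smaller, with 61 Acta2-rich and 82 intermediate-Acta2 cells left. Cnn1, Ptgis, Ryr2 and Ramp1 had log2 ratios of 7.55, 7.63, 5.62 and 4.95 without those cells, Abcc9 and Kcnj8 -7.13 and -3.58, and Fosb 0.83. The vasoactive receptor and transporter medians moved to -0.66 and -0.73.

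Set beside the low-Acta2 mural cells as well, the intermediate-Acta2 cells were highest in only 9 of 9262 genes (0.0972%), each at least 2-fold above both other classes over all cells and on every plate. Both comparisons share the intermediate-Acta2 cells. The 9 genes are named here after their values were seen. Casq2 led them in level, at 361, 1891 and 634 CPM in Acta2-rich, intermediate-Acta2 and low-Acta2 cells. Ephx3, an epoxide hydrolase, had 39.1, 98.0, 186 and 91.6 CPM in Acta2-rich cells, against 508, 810.1, 708 and 1052 CPM in intermediate-Acta2 cells and 54.3 CPM in low-Acta2 cells. Procr, the protein C receptor, had 13.4, 85.9 and 4.61 CPM, and Adamts16, a secreted protease, 16.1, 75.3 and 2.8 CPM. Begain (157 CPM in intermediate-Acta2 cells), AI593442 (209.6), Rap2a (136), Cdc14b (92.4) and Galnt16 (66.3) were the others. Galnt16 was under 2-fold with the sides divided at 5000 CPM of Acta2, at a log2 ratio of -0.77 for Acta2-rich over intermediate-Acta2 cells, against -4.53 at 10000 CPM. It rested on 9 of 87 cells with a read, Adamts16 on 24, Procr on 20, Ephx3 on 56 and Casq2 on 71. Other calls against the Acta2-rich cells were lost too, with pooled ratios still above 2-fold. At a division of 20000 CPM these were Rap2a, Adamts16 and Procr, and at 5000 CPM Rap2a, Adamts16 and AI593442. Casq2 (log2 ratio -1.68), Rap2a, Adamts16, Cdc14b and Procr lost the call among cells with Fos under 1000 CPM.

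**Figure D4:**
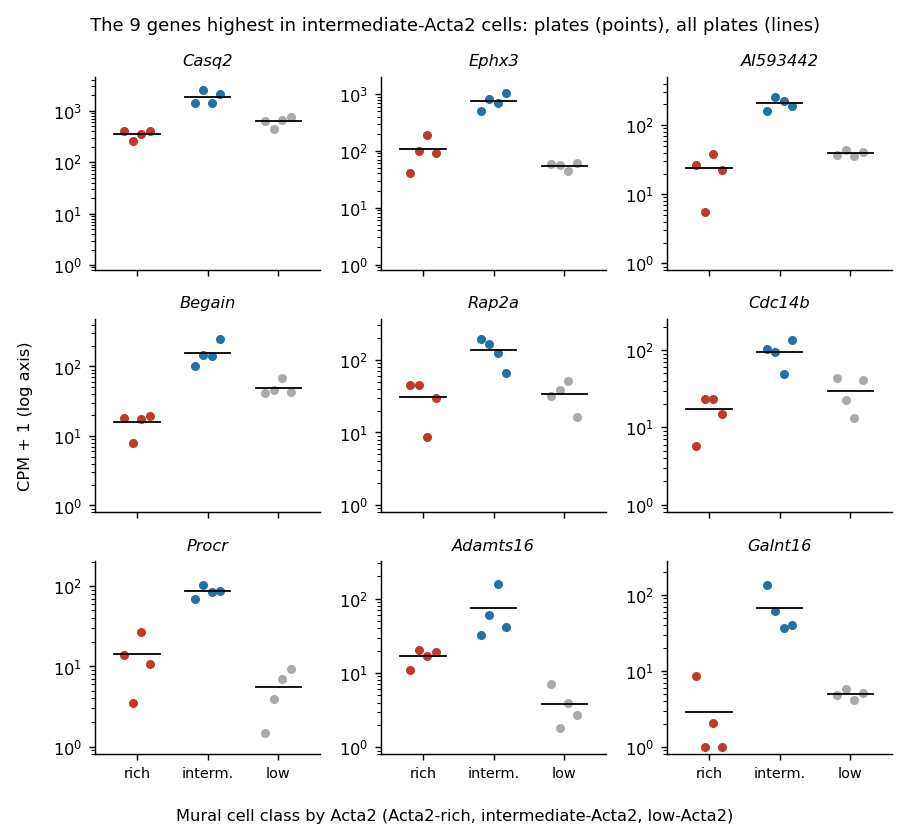
Pooled levels in CPM plus 1 on log axes of the 9 genes at least 2-fold higher in intermediate-Acta2 cells (blue) than in Acta2-rich cells (red) and low-Acta2 cells (grey), with 1 point per plate and a line for all plates. Casq2 and Ephx3 are the most abundant, and Adamts16 and Galnt16 spread most over the intermediate-Acta2 plates.

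In the other direction 60 genes (0.648%) were at least 2-fold lower in intermediate-Acta2 cells than in both other classes. They were low everywhere, with medians of 25.5 CPM in Acta2-rich, 1.00 CPM in intermediate-Acta2 and 19.1 CPM in low-Acta2 cells, and 48 of the 60 were under 50 CPM in both other classes. The median gene of the 60 was read in 3 of the 87 intermediate-Acta2 cells, so the smaller number of these cells moves with this group. Its part was not tested. Cyr61 and Ier3 were 2 of the 60 with higher levels (337, 27.4 and 126 CPM of Ier3 in Acta2-rich, intermediate-Acta2 and low-Acta2 cells).

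The intermediate-Acta2 cells were not alike among themselves. A minority, 11 of 87, had under 100 CPM of the pericyte gene Atp13a5, a split made after the data were seen. These 11 came from all 4 plates. They had 267 CPM of Casq2, 338 CPM of Slc6a20a and 1079 CPM of Fos, against 2160, 1330 and 86.8 CPM in the other 76 cells. Their pericyte markers summed to 19427 CPM, against 35231 CPM in the 76, while Abcc9 was near level at 493 and 463 CPM. Galnt16 had 206 CPM in the 11 and 43.2 CPM in the 76. With the 11 left out, 417 genes were higher and 247 lower in Acta2-rich cells than in intermediate-Acta2 cells, with 310 and 213 of them among the genes called on all cells.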

How the data were processed

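Full-length RNA of single sorted mouse brain cells was sequenced on 384-well plates. The authors deposited whole-number read counts per gene and cell (19937 genes, 3186 cells) without molecular tags, and a table scaled to a score that sums to 499610 to 500443 per mural cell. STAR 2.4.2a and mm10 are named per the submitters' processing notes, while for the counter, the annotation and the filters a name was not given in the sources used here. Reads per cell were 99905 to 1606954, which limits the precision of low genes in small pools.

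Counts of each class were summed over cells, per plate and over 4 plates, and divided by the class total (CPM). Log2 ratios added 1 CPM. A call needed a 2-fold difference over all plates and on each plate among genes with a mean of at least 10 CPM over both sides, with Acta2, Cldn5 and eGFP left out. No test was made because the labels name no animals and each side is 1 sample. Intervals are exact and cover counting error only. Folds against 0 reads used a floor of 3 reads over the pool, which counts reads and not cells. Wells rich in endothelial markers were kept, and left out in an alternative; no doublet caller was run. The members and the 19 gene and 12 marker lists were chosen with earlier results of these data known. Named genes are the 15 largest ratios each way among called genes with at least 50 CPM on the higher side, and up to 3 list members at each end with at least 20 CPM on either side, besides Acta2, Cldn5, the reporter genes and members of the marker lists where a result touches them. Exceptions named for another reason are Fos, Myl6, Zfp36, Egr2, and the genes highest or lowest in intermediate-Acta2 cells. The fold script was tested on simulated counts. Positions are GENCODE M21 on mm10 for genes and RefSeq GRCm38.p6 for promoter windows, which were matched by symbol or older symbol. Alternatives changed the Acta2 and Cldn5 limits, scaling, pseudocount, filter, table and plates. Software was Python 3.11.15, numpy 2.4.6, pandas 2.3.3, scipy 1.17.1 and matplotlib 3.10.9.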

Additional observations from a re-analysis of the deposited data

Results flagged for a closer look

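Of 59 results examined for a plate that stood far from the other 3, 1 did so. The log2 ratio of Glrb, a subunit of the glycine receptor, was -2.30 on plate Mural3 and -6.21, -5.81 and -5.61 on plates Mural4, Mural5 and Mural6 (Acta2-rich over intermediate-Acta2 cells). Acta2-rich cells had 3.24, 0.705, 2.75 and 3.77 CPM on the 4 plates and intermediate-Acta2 cells 19.9, 125, 209 and 233 CPM, so the intermediate-Acta2 pool of Mural3 was the low value. Chance alone singles out about 1 in 20 such groups, and plates are not separate animals.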

How the results depend on the processing

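No paired analysis was possible because no animals are named and no test was made, while every call was itself made within each plate. Over 22 alternative settings, 3454 values of 157 named genes were recomputed, and 242 moved by more than the spread over plates. Of the 106 called genes among them 2 turned their direction, both among cells with Fos under 1000 CPM: Hes1 at -0.16 and Zfp36 at -0.27. Of the 51 genes without a call 11 changed sign under at least 1 setting. Under all 22 settings 33 of the 106 kept their call. The call was lost for 24 when the sides were divided at 20000 CPM of Acta2, for 17 at 5000 CPM, for 20 with a lower limit of 2000 CPM, for 33 at a minimum mean of 50 CPM and for 45 among cells with Fos under 1000 CPM. The pooled ratio itself fell under 2-fold for 4 of the 24, 1 of the 17 and 6 of the 45, and for 0 of the 20 and of the 33. Of 418 list medians 41 moved. The counts of called genes depended on the settings as follows. Dividing the sides at 20000 CPM of Acta2 gave 217 genes higher and 303 lower, of which 152 and 178 were among the 350 and 258, and 134 intermediate-Acta2 cells, and a lower limit of 2000 CPM left 56 such cells. A minimum mean of 50 CPM left 180 higher and 162 lower. Leaving out 1 plate, so that 3 plates had to pass, gave 481 to 547 higher and 373 to 446 lower genes. Cells with Fos under 1000 CPM gave 207 higher genes. All other settings gave counts within 1.5 times of 350 and 258. Dividing at 5000 CPM gave 454 higher and 216 lower, of which 277 and 159 were among the 350 and 258. Higher genes were 57.6% of all calls, 63.3% when scaled without contractile genes and 65.1% by median-ratio scaling, where the median of all genes was -0.01 and -0.0013 against -0.11. That share was 67.8% with the division at 5000 CPM, 41.7% at 20000 CPM, 67.1% with the lower limit of 2000 CPM, 48.5% among cells with Fos under 1000 CPM and 44.1% without the demand on each plate, so which direction held more calls depends on these choices. The cause of these shifts was not tested, except that fewer genes can pass a higher minimum and more can pass with fewer plates. The 20 to 23 intermediate-Acta2 cells per plate limit what can be said of genes read in few cells.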
